A study of Arabidopsis thaliana with 8 samples.

Results

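Aux/IAA and GH3 genes are among the first transcripts that plants make when auxin rises. The set examined here was named by locus code as IAA1, IAA2, IAA3, IAA5, IAA19 and IAA29 of the Aux/IAA family and WES1 (also called GH3.5) and GH3.3 of the GH3 family. Of these 8 genes, 4 were read by a single named probe set on the ATH1 array, out of 22634 probe sets tested: IAA2 (AT3G23030, 257766_at), IAA29 (AT4G32280, 253423_at), WES1 (AT4G27260, 253908_at) and GH3.3 (AT2G23170, 245076_at). The platform annotation named the probe sets of IAA29, WES1 and GH3.3, and the probe set of IAA2 was named through the study's supplementary gene table, which lists genes chosen for their change on these arrays. IAA1, IAA3, IAA5 and IAA19 had no single named probe set in the tables used and were not analysed here.

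The arrays came from whole 7-d-old seedlings of Arabidopsis in 4 groups of 2 arrays. OE-HRA1 seedlings carried 35S:HRA1:FLAG, a tagged HRA1 driven by a viral promoter that is active in most cells, and Col-0 is the parental wild type. Seedlings were held for 2 h in argon (hypoxia) or for 2 h in open air (non-stress, called air here), both in dim light at the end of the light cycle. The 2 OE-HRA1 arrays of a condition came from independent lines #1 and #2, so that a line and a replicate cannot be told apart, whereas the Col-0 arrays are labelled only by a replicate number. Because nothing states that the Col-0 replicates were grown separately, p-values measure the spread between these arrays. In whole seedlings, fewer cells of a type and less RNA per cell cannot be told apart.

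HRA1 encodes a trihelix transcription factor that binds RAP2.12, an activator of the core hypoxia genes, and dampens its activity. The HRA1 signal was 12.19 and 12.02 in OE-HRA1 and 11.74 and 12.10 in Col-0 under hypoxia, and 12.98 and 13.09 in OE-HRA1 and 7.20 and 7.00 in Col-0 in air, all on the log2 scale. On these arrays the genotypes were far apart in air and overlapped under hypoxia, where HRA1 was also high in Col-0. The study's RT-qPCR of seedlings, in contrast, found more total HRA1 transcript in both OE-HRA1 lines than in the wild type under hypoxia too. Arrays of one group correlated at 0.994 to 0.997 across probe sets. For the Col-0 hypoxia pair, 1 of the labels (the sample source) reads non-stress; the other labels read hypoxia, and the pair was used as hypoxia. Of 16 tissue marker genes looked for, 3 had a named probe set, none of them a shoot marker, so the tissue could be checked only in part. The root hair genes EXPA7 and COBL9 were measured in all groups, and EXPA7 was lower under hypoxia, with a signal log2 ratio (SLR) of -1.33 in OE-HRA1 and -1.17 in Col-0. COBL9 had an SLR of -0.84 in OE-HRA1 and -0.86 in Col-0. Between OE-HRA1 and Col-0, EXPA7 had an SLR of 0.47 under hypoxia and 0.64 in air, and COBL9 had 0.34 under hypoxia and 0.32 in air. The call of EXPA7 in OE-HRA1 was lost without the line #2 hypoxia array (adjusted p = 0.013 by limma) or without line #2 (adjusted p = 0.0339), and in Col-0 without air replicate 1 (adjusted p = 0.014) or 2 (adjusted p = 0.0146). The seed oil body gene OLEO1 read 8.89 and 8.64 on the OE-HRA1 hypoxia arrays, and the Col-0 hypoxia arrays read 6.89 and 7.26. The OE-HRA1 air arrays read 8.12 and 8.17, and the Col-0 air arrays 6.73 and 7.64. Its SLR of OE-HRA1 against Col-0 was 1.69 under hypoxia (adjusted p = 0.00928 by limma, called) and 0.96 in air (adjusted p = 0.139), and the call under hypoxia was lost without any one of the OE-HRA1 arrays, the Col-0 hypoxia arrays or the lines (adjusted p = 0.0185 to 0.139), and after blocking on line (adjusted p = 0.0167). The part of these markers in the auxin gene results was not tested.

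Auxin acts by bringing Aux/IAA repressors to the TIR1/AFB receptors, which mark them for breakdown and free the auxin response factors (ARFs) at target promoters. Aux/IAA genes are themselves targets of the ARFs, so the pathway refills its own repressors. GH3 enzymes join auxin to amino acids and thereby lower the pool of free hormone, a second feedback. SAUR genes, a further class of early auxin transcripts, encode small proteins that promote cell expansion.

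Under hypoxia, IAA2 was called higher than in air in both genotypes and WES1 in Col-0, while GH3.3 and IAA29 were called in neither genotype. IAA2 was 2.40-fold higher in OE-HRA1 and 2.72-fold higher in Col-0, and WES1 had a fold of 1.87 in OE-HRA1 and 2.39 in Col-0. A probe set was called changed where its SLR was beyond 1 in either direction and its adjusted p was below 0.01, by limma with Benjamini-Hochberg adjustment over all probe sets. By this rule 1 of the 4 genes was called higher and none lower in OE-HRA1, where 3.07% of all probe sets were called, 1.95% as higher and 1.12% as lower. In Col-0, 2 of the 4 were called higher and none lower, where 2.86% of all probe sets were called, 2.02% as higher and 0.835% as lower. The median SLR of the 4 genes was 0.70 in OE-HRA1 and 1.24 in Col-0, against 0.0092 and -0.014 over all probe sets in the same genotypes. The genes were picked with such changes known, so these counts describe them and do not test them.

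**Figure D1:**
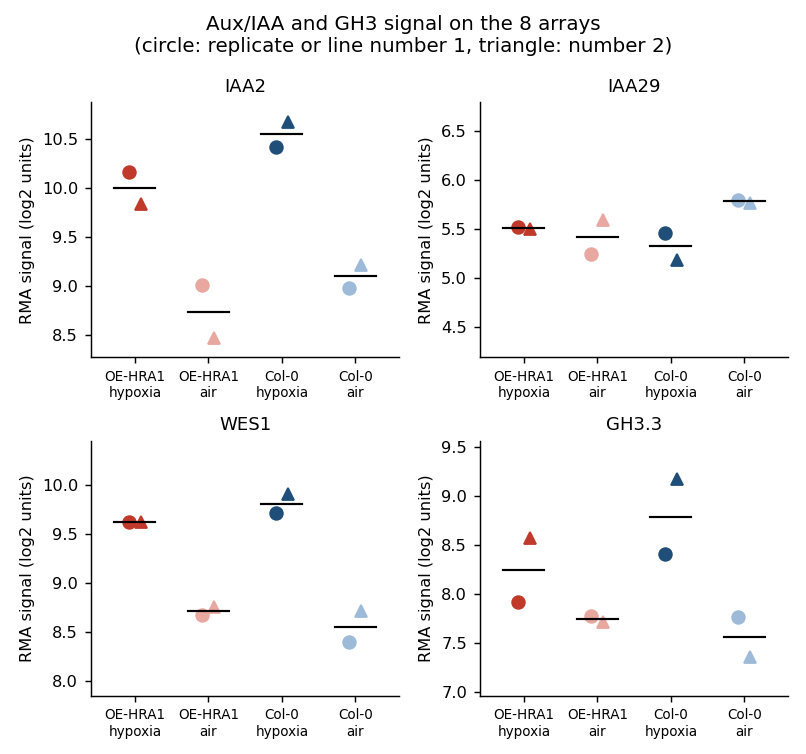
RMA signal (log2, vertical axes) of IAA2, IAA29, WES1 and GH3.3 on each of the 8 arrays, by group (horizontal axes), with circles for number 1, triangles for number 2 and a bar at the group mean. Both hypoxia arrays stand above both air arrays of the same genotype for IAA2, WES1 and GH3.3, but not for IAA29.

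IAA2 is an Aux/IAA repressor whose transcript is widely used as an early auxin readout. Its signal in OE-HRA1 was 10.16 and 9.83 under hypoxia, against 9.01 and 8.46 in air. In Col-0 it was 10.41 and 10.67 under hypoxia, against 8.98 and 9.21 in air. The hypoxia and air arrays did not overlap in either genotype, and both OE-HRA1 arrays lay below both Col-0 arrays under hypoxia, whereas the genotypes overlapped in air. The SLR of hypoxia against air was 1.26 in OE-HRA1 (SE 0.19, adjusted p = 0.00295 by limma) and 1.44 in Col-0 (SE 0.19, adjusted p = 0.00168). Within Col-0, 1.32% of all probe sets had an SLR at least as high, and within OE-HRA1 1.45% did. These ranks describe a probe set named through genes chosen as changed on these arrays, and do not test it.

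The call of IAA2 in OE-HRA1 was lost with any of its arrays left out except the line #1 air array. Each such fit held 1 array in a group, so its spread was estimated from fewer arrays. The SLR was 1.10 without the line #1 hypoxia array, 1.42 without the line #2 hypoxia array and 0.99 without the line #2 air array. The call was also lost without both arrays of either line. Blocking on line in the fit to all arrays kept it. In Col-0 the call was lost without air replicate 1 (SLR 1.33). Each line taken alone gave a positive difference between hypoxia and air, of 1.15 in line #1 and 1.37 in line #2.

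IAA29 encodes an Aux/IAA repressor that is known as a target of the light-regulated PIF factors as well as of auxin. Its signal in OE-HRA1 was 5.52 and 5.50 under hypoxia, against 5.25 and 5.59 in air. In Col-0 it was 5.46 and 5.19 under hypoxia, against 5.79 and 5.77 in air. In OE-HRA1 the hypoxia arrays lay between the air arrays, while in Col-0 both hypoxia arrays lay below both air arrays. The SLR was 0.09 in OE-HRA1 (95% confidence interval -0.21 to 0.39, adjusted p = 0.697 by limma) and -0.46 in Col-0 (95% confidence interval -0.76 to -0.16, adjusted p = 0.0458), and neither was called. The gene gave a weak signal, brighter on average than 29.4% of probe sets.

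WES1 encodes a GH3 enzyme that conjugates auxin and can also act on salicylic acid. Its signal in OE-HRA1 was 9.63 and 9.63 under hypoxia, against 8.68 and 8.76 in air. In Col-0 it was 9.72 and 9.91 under hypoxia, against 8.40 and 8.71 in air. Hypoxia and air did not overlap in either genotype. In OE-HRA1 the SLR was 0.91 (SE 0.12, adjusted p = 0.0014 by limma), which passed the p-value threshold but not the minimum SLR. In Col-0 the SLR was 1.26 (SE 0.12, adjusted p = 2.81e-04), and the gene was called higher.

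GH3.3 encodes another auxin-conjugating enzyme, and its SE was the largest of the 4. Its signal in OE-HRA1 was 7.91 and 8.57 under hypoxia, against 7.77 and 7.71 in air. In Col-0 it was 8.40 and 9.17 under hypoxia, against 7.76 and 7.35 in air. The hypoxia arrays were above the air arrays in both genotypes, but by little in line #1, where the difference was 0.14, against 0.86 in line #2. The SLR was 0.50 in OE-HRA1 (SE 0.28, adjusted p = 0.258 by limma) and 1.23 in Col-0 (SE 0.28, adjusted p = 0.0192), so that GH3.3 was called in neither genotype. Without Col-0 hypoxia replicate 1 the SLR in Col-0 was 1.61 and the gene was called (adjusted p = 0.00567).

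A further GH3 probe set, 262099_s_at, matches both GH3.2 and GH3.4, whose transcripts it cannot tell apart, and was picked out after its values were seen. Its signal in OE-HRA1 was 8.48 and 9.03 under hypoxia, against 7.06 and 6.85 in air. In Col-0 it was 9.36 and 9.33 under hypoxia, against 6.61 and 6.81 in air. The SLR was 1.80 in OE-HRA1 (SE 0.17, adjusted p = 2.85e-04 by limma), or 3.49-fold, and 2.64 in Col-0 (SE 0.17, adjusted p = 3.39e-05), or 6.22-fold. Both were called higher, and the call in OE-HRA1 was lost without line #2 (SLR 1.43, adjusted p = 0.0135). In Col-0, 0.362% of all probe sets had an SLR at least as high. This rank describes a probe set picked with its values known and does not test it. Its gene names came from the supplementary table of genes chosen as changed.

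**Figure D2:**
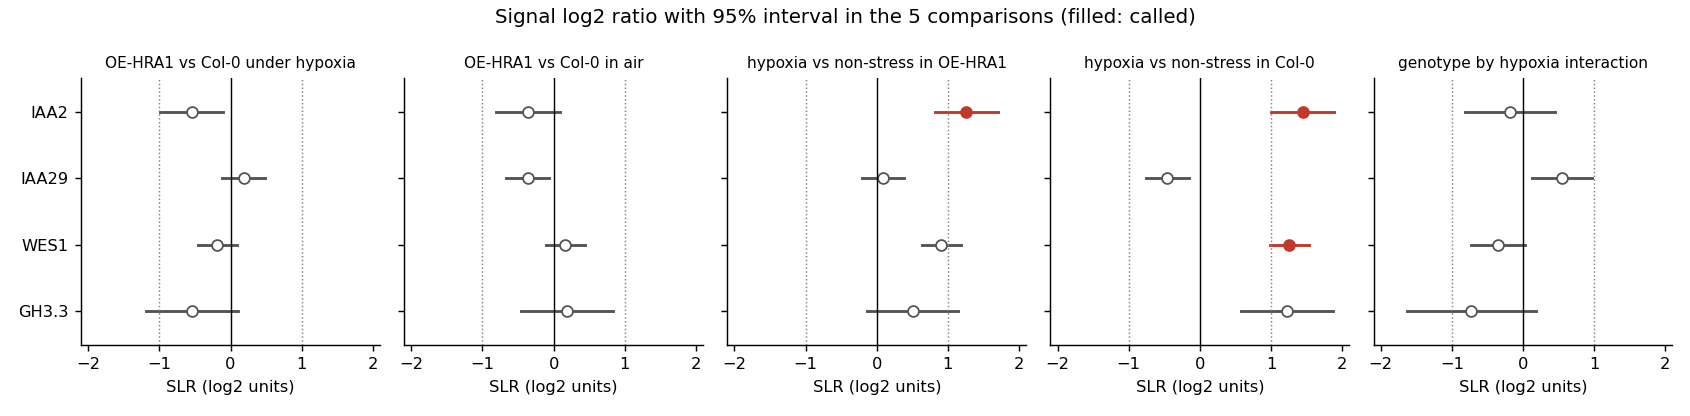
Signal log2 ratio (SLR, horizontal axes, log2 units) of IAA2, IAA29, WES1 and GH3.3 in each of the 5 comparisons (panels), with points for the estimates, filled where called, bars for the 95% confidence intervals of the limma fit and dotted lines at SLRs of -1 and 1. The called points are IAA2 under hypoxia in both genotypes and WES1 under hypoxia in Col-0.

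The second comparison asked whether these genes differed between OE-HRA1 and Col-0 within hypoxia or within air. The HRA1 array signal itself overlapped between the genotypes under hypoxia, with an SLR of 0.18 (adjusted p = 0.436 by limma). The study's RT-qPCR put both OE-HRA1 lines above the wild type there, as given above. OLEO1 differed between the same groups, as given above, and its part in these values was not tested. Under hypoxia, none of the 4 genes was called between OE-HRA1 and Col-0 by limma, where 0.937% of all probe sets were called (0.309% as higher and 0.627% as lower), and IAA2 alone had an unadjusted p below 0.05, as did 24.5% of all probe sets. The SLR of OE-HRA1 against Col-0 under hypoxia was -0.54 for IAA2 (95% confidence interval -0.99 to -0.10, adjusted p = 0.129 by limma). It was -0.54 for GH3.3 (95% confidence interval -1.18 to 0.10, adjusted p = 0.279) and -0.19 for WES1 (95% confidence interval -0.46 to 0.09, adjusted p = 0.376). For IAA29 it was 0.19 (95% confidence interval -0.11 to 0.49, adjusted p = 0.421). For the probe set shared by GH3.2 and GH3.4 it was -0.59 (SE 0.17, adjusted p = 0.0743), with both OE-HRA1 arrays below both Col-0 arrays. The lower bounds of IAA2 and GH3.3 show that differences near the minimum SLR of a call were within reach of these intervals.

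In air, none of the 4 genes was called between OE-HRA1 and Col-0 by limma, where 0.11% of all probe sets were called (0.0398% as higher and 0.0707% as lower), and 1 of the 4, IAA29, had an unadjusted p below 0.05, as did 14.6% of all probe sets. The SLR was -0.36 for IAA29 (95% confidence interval -0.66 to -0.06, adjusted p = 0.25) and -0.36 for IAA2 (95% confidence interval -0.80 to 0.08, adjusted p = 0.454). It was 0.17 for WES1 (95% confidence interval -0.11 to 0.44, adjusted p = 0.597) and 0.18 for GH3.3 (95% confidence interval -0.46 to 0.83, adjusted p = 0.844).

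The third comparison asked whether the hypoxia response itself differed between the genotypes, and used the interaction term of the same fit. None of the 4 genes was called by limma, where 0.168% of all probe sets were called (0.00442% as higher and 0.163% as lower), and IAA29 alone had an unadjusted p below 0.05, as did 5.73% of all probe sets. The hypoxia SLR in OE-HRA1 minus that in Col-0 was -0.18 for IAA2 (95% confidence interval -0.81 to 0.44, adjusted p = 0.977), -0.35 for WES1 (95% confidence interval -0.74 to 0.03, adjusted p = 0.89) and -0.72 for GH3.3 (95% confidence interval -1.63 to 0.19, adjusted p = 0.914). For IAA29 it was 0.55 (95% confidence interval 0.12 to 0.97, adjusted p = 0.669), and for the probe set shared by GH3.2 and GH3.4 it was -0.84 (95% confidence interval -1.38 to -0.29, adjusted p = 0.491). As a share of the log2 change in Col-0, OE-HRA1 showed 87.2% for IAA2, 72.0% for WES1 and 41.0% for GH3.3. The share of GH3.3 is uncertain, since its SLR in OE-HRA1 ran from 0.14 without line #2 to 0.86 without line #1, with 0.17 without the line #2 and 0.83 without the line #1 hypoxia array. Its interaction ran from -1.11 without Col-0 hypoxia replicate 1 to -0.34 without Col-0 hypoxia replicate 2. The share of IAA2 is uncertain too. With an array or line left out, the SLR of IAA2 in OE-HRA1 ran from 0.99 to 1.53 and its interaction from -0.46 to 0.087.

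Across the 8 arrays IAA2 varied with WES1 (Pearson r = 0.917) and GH3.3 (r = 0.78), and WES1 with GH3.3 (r = 0.821), whereas IAA29 ran against them (r between -0.67 and -0.502). These values describe arrays that share 2 treatments and 2 genotypes. Among 2682 named probe sets that varied enough to be ranked, the patterns most like that of IAA2 were those of PHF1 (r = 0.979), AT4G10270, AT1G78070, SPX2 and AT1G76700 (r = 0.973), in falling order. PHF1 assists phosphate transporters out of the endoplasmic reticulum, and SPX2 belongs to the phosphate sensing proteins. Both were named through the supplementary table of genes chosen as changed, and the others by the platform annotation. AT4G10270, the highest ranked of those others, read 11.23 and 11.34 in OE-HRA1 under hypoxia, against 7.78 and 7.28 in air. In Col-0 it read 12.97 and 13.10 under hypoxia, against 8.31 and 8.45 in air. These correlations rest on the same treatments and genotypes, and a link to phosphate was not tested.

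Other genes of the pathway were taken from 9 lists that hold 128 genes, of which 36 had a single named probe set. The 17 that were named through the supplementary table had been chosen by the study as changed, so their counts are not independent evidence of a direction. Of these 17, none was called higher and 5 were called lower in OE-HRA1 under hypoxia against air, and 3 were called higher and 5 lower in Col-0. None of the other 19, which the platform annotation named, was called in any of the 5 comparisons by limma. At an unadjusted p below 0.05 they gave 6 of 19 in each of the hypoxia comparisons, where 33.3% of all probe sets in OE-HRA1 and 29.0% in Col-0 did so, which is near that background. They gave 5 between the genotypes under hypoxia (24.5% of all probe sets), 4 in air (14.6%) and 1 for the interaction (5.73%). No gene of the TIR1/AFB receptor list, nor of the list of shade and PIF genes, had a single named probe set.

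Among the other Aux/IAA genes, 8 of 23 were measured. IAA14, the repressor that holds back lateral root initiation, was also higher under hypoxia. Its signal in OE-HRA1 was 7.57 and 7.64 under hypoxia, against 6.67 and 6.63 in air, and in Col-0 it was 8.14 and 7.99 under hypoxia, against 6.59 and 6.68 in air. The SLR was 0.95 in OE-HRA1 (adjusted p = 2.30e-04 by limma), just under the minimum for a call, and 1.43 in Col-0 (SE 0.086, adjusted p = 2.38e-05), which was called. Between the genotypes under hypoxia its SLR was -0.45 (adjusted p = 0.0196), not called. Its interaction SLR was -0.47 (adjusted p = 0.369 by limma), not called either. IAA4 was lower in OE-HRA1 than in Col-0 under hypoxia, with an SLR of -0.88 (SE 0.16, adjusted p = 0.0169) that was not called, and it was called without Col-0 hypoxia replicate 1 (SLR -1.12, adjusted p = 0.00499). Among the 3 of 8 further GH3 genes measured, GH3.1 had an SLR of hypoxia against air of 0.69 in OE-HRA1 (adjusted p = 0.00413) and 0.42 in Col-0 (adjusted p = 0.0374), neither called. IAA18, IAA31, GH3.9 and GH3.17 were called in no comparison by limma, and their lowest adjusted p was 0.0559.

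Among the 8 SAUR genes measured of 25 on the list, 2 were called between the genotypes under hypoxia, both lower in OE-HRA1. SAUR27 gave 5.55 and 5.45 under hypoxia in OE-HRA1, against 4.82 and 5.28 in air. In Col-0 it gave 7.57 and 7.61 under hypoxia, against 4.98 and 5.29 in air. The high arrays were the Col-0 hypoxia pair alone. On average over the arrays the gene gave a weak signal, brighter than 33.1% of probe sets, and present calls were not repeated. The hypoxia SLR was 0.45 in OE-HRA1 (adjusted p = 0.0818 by limma) and 2.45 in Col-0 (SE 0.16, adjusted p = 3.42e-05), or 5.48-fold. Under hypoxia OE-HRA1 lay below Col-0 by an SLR of -2.09 (SE 0.16, adjusted p = 4.59e-04), while in air the SLR was -0.09 (adjusted p = 0.871). The call under hypoxia was lost without line #2 (adjusted p = 0.0137).

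SAUR28, a closely related neighbour of SAUR27 whose cross-hybridisation was not tested, showed an SLR of hypoxia against air of 0.20 in OE-HRA1 (adjusted p = 0.422 by limma) and 1.07 in Col-0 (SE 0.16, adjusted p = 0.00265). SAUR16 had 0.32 in OE-HRA1 (adjusted p = 0.0473) and 0.85 in Col-0 (adjusted p = 7.22e-04), neither called. The interaction SLR was -0.86 for SAUR28 and -0.53 for SAUR16 (adjusted p = 0.371 each by limma), neither called. AT1G29500, a SAUR of another cluster of like genes, was called lower in OE-HRA1 than in Col-0 under hypoxia (SLR -1.20, SE 0.18, adjusted p = 0.00837, and after blocking on line 0.015, which ended the call). All 7 SAUR genes named through the supplementary table had a negative SLR there, from -2.09 to -0.61 with a median of -1.16, and 2 of the 7 were called. These 7 had been chosen by the study as changed, and some share a cluster of like genes. Their common direction is thus not independent evidence. The 1 SAUR gene that the platform annotation named had an SLR of -0.14 there (adjusted p = 0.336 by limma). SAUR28 gave a weak signal, brighter on average than 19.9% of probe sets. It lost its call in Col-0 without air replicate 1 (SLR 1.13), air replicate 2 (SLR 1.01) or hypoxia replicate 2 (SLR 0.79). Its call was also lost without either OE-HRA1 line, where the SLR stayed at 1.07 and the spread was estimated from fewer arrays. AT1G29500 lost its call in every fit that left out an array except the one without Col-0 hypoxia replicate 1, at adjusted p-values up to 0.0752 with 1 array left out and up to 0.145 with a line left out.

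**Figure D3:**
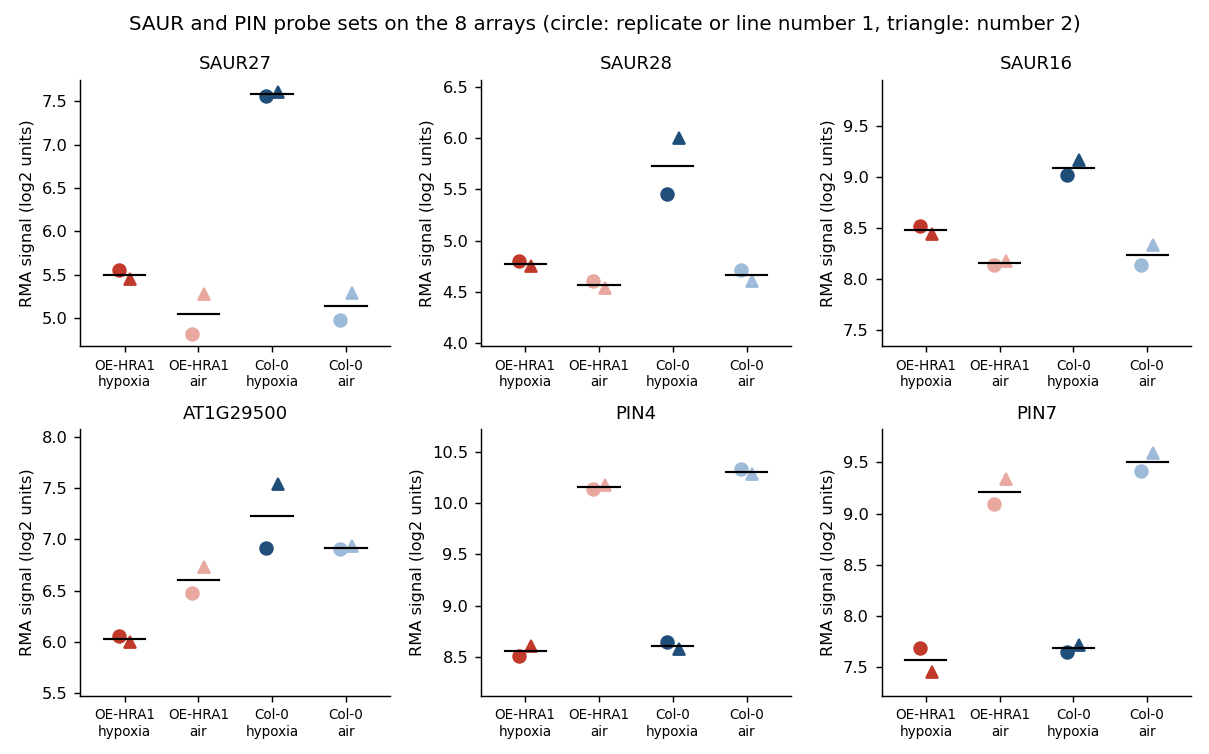
RMA signal (log2, vertical axes) of SAUR27, SAUR28, SAUR16, AT1G29500, PIN4 and PIN7 on each of the 8 arrays by group (horizontal axes), with circles for number 1, triangles for number 2 and a bar at the group mean. SAUR27 is high on the Col-0 hypoxia arrays alone (7.57 and 7.61), while PIN4 and PIN7 are lower under hypoxia in both genotypes.

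The 5 transport genes measured, of 16 on the list, ran the other way from IAA2, and in both genotypes. PIN proteins carry auxin out of cells and LAX3 carries it in. PIN4 had an SLR of hypoxia against air of -1.60 in OE-HRA1 (adjusted p = 1.02e-05 by limma) and -1.70 in Col-0 (adjusted p = 5.68e-06). PIN7 had -1.65 in OE-HRA1 (adjusted p = 7.75e-05) and -1.82 in Col-0 (adjusted p = 3.56e-05). PIN3 had -1.30 in OE-HRA1 and -1.06 in Col-0, and LAX3 had -1.27 in OE-HRA1 and -1.16 in Col-0, all called lower. All 5 transport genes measured had been chosen by the study as changed, so their direction does not describe the whole list. Without line #1 the calls of PIN3 and LAX3 in OE-HRA1 were lost (adjusted p = 0.0107 and 0.0104), and without line #2 those of PIN3, PIN7 and LAX3 were (adjusted p = 0.0194, 0.0126 and 0.032), and PIN3 lost its call in Col-0 without air replicate 1 (SLR -0.99).

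Among genes of auxin synthesis and response, CYP79B2 alone was called. CYP79B2 makes indole-3-acetaldoxime. Its SLR of hypoxia against air was -0.16 in OE-HRA1 and -1.60 in Col-0 (adjusted p = 0.00226 by limma). The call in Col-0 was lost without air replicate 2 (SLR -1.27) or hypoxia replicate 2 (SLR -1.46). It was also lost without either OE-HRA1 line, where the SLR stayed at -1.60 and the spread was estimated from fewer arrays. The interaction SLR of CYP79B2 was 1.44 (adjusted p = 0.236 by limma), not called. Its SLR of OE-HRA1 against Col-0 under hypoxia was 0.93 (adjusted p = 0.0464), not called either. YUC6, a flavin monooxygenase of the main auxin synthesis route, had a hypoxia SLR of -0.71 in OE-HRA1 (adjusted p = 7.06e-04) and -0.44 in Col-0 (adjusted p = 0.00754), neither called. ARF4 had -0.89 in OE-HRA1 and -0.90 in Col-0, and ARF17 had -0.45 in OE-HRA1 and -0.75 in Col-0, none of them called. YUC2, DAO1, HAT2 and LBD29 were called in no comparison by limma, with adjusted p-values down to 0.0208. LBD16, a target of the ARFs in lateral root founder cells, had 0.79 in OE-HRA1 and 0.68 in Col-0, and its SLR of OE-HRA1 against Col-0 was 0.78 under hypoxia (adjusted p = 0.00741) and 0.67 in air (adjusted p = 0.0373), none of them called.

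**Figure D4:**
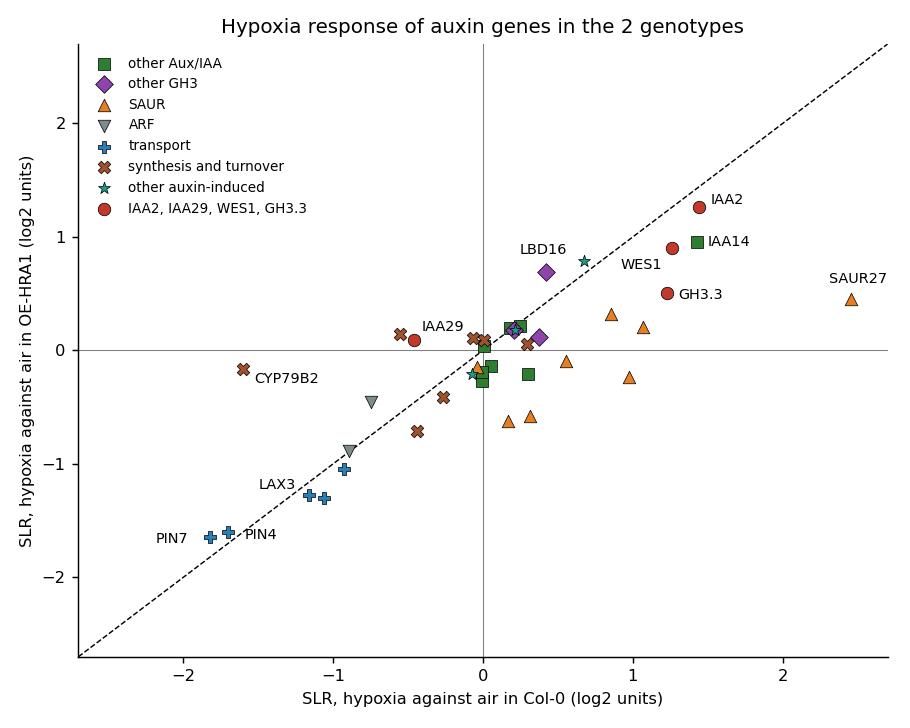
Hypoxia SLR in OE-HRA1 (vertical axis, log2 units) against that in Col-0 (horizontal axis, log2 units) for IAA2, IAA29, WES1, GH3.3 and the 36 other auxin probe sets, 1 point each, coloured by list, with a dashed line where both genotypes would be equal. PIN4 and PIN7 lie near the line at about -1.6 to -1.8, IAA2 lies at 1.44 and 1.26, and SAUR27 lies far below it at 2.45 and 0.45.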

How the data were processed

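The deposited values were log2 signals that the authors made from the ATH1 scans by RMA, and they were used as given. Per the study's methods, RMA was run together with arrays of another experiment, of rosette tissue of Col-0 and of an overexpressor of HA-tagged RAP2.12. Organelle probe sets were removed, and probe sets had to be called present in over 50% of samples. Whether the deposited table came from that run is not stated, and the present calls were not repeated. Of 22810 probe sets, 64 controls and 112 organelle sets were left out, leaving 22634. Names came from the platform annotation (13415 probe sets) or the study's supplementary gene table (573), and 8646 had no single name. One limma model (3.58.1, R 4.3.3) of 4 group means was fitted to all 8 arrays, with 5 contrasts. The call rule, an SLR beyond 1 with an adjusted p below 0.01, follows the study's methods. The fit was tested on simulated data. Arrays carry no read depth, and 2 arrays per group limit the precision.

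Named genes were the members, HRA1, up to 4 genes of each auxin list with the smallest adjusted p in any comparison, and the 5 genes most correlated with IAA2 (SD over arrays of at least 0.3). One listed gene is not reported here by name. The members and lists were chosen with earlier results of these data known. Alternatives were other normalizations, thresholds, fits and filters, blocks on line or replicate number, and the omission of each array or line. An omission left 1 array in a group, so the spread was estimated from fewer arrays. A call or a count of calls could thus be lost with the SLR unchanged. Same-numbered OE-HRA1 arrays came from 1 line, which pairs them, whereas the Col-0 numbers are not stated to mark a shared source. The correlation of deviations from the group means was 0.15 within OE-HRA1 lines, 0.374 within Col-0 and -0.0804 to -0.0892 between the genotypes.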

Additional observations from a re-analysis of the deposited data

Results flagged for a closer look

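The hypoxia response of SAUR27 differed between the genotypes. The interaction SLR (the response in OE-HRA1 minus that in Col-0) was -2.0 (SE 0.22, adjusted p = 0.00993 by limma), and both OE-HRA1 arrays lay below both Col-0 arrays under hypoxia. SAUR27 was named through the supplementary table of genes chosen as changed, and its mean signal was weak, as given above. After blocking on line the adjusted p was 0.0202. The call stood just inside the threshold and was lost in 15 of 20 alternatives. Over all 20 alternatives the SLR ran from -2.29 to -1.72 and the adjusted p by limma from 0.00402 to 0.843.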

How the results depend on the processing

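Of 446 alternative values of the 4 genes, 430 kept their direction and their side of the threshold. The direction turned for 3 results near 0: GH3.3 in OE-HRA1 against Col-0 in air (-0.021 to 0.39 with an array left out, the lowest without Col-0 air replicate 2), IAA29 under hypoxia in OE-HRA1 (-0.086 without the line #1 air array, -0.093 without line #1 0.26 without the line #2 air array and up to 0.27 without line #2) and the interaction of IAA2 (-0.46 to 0.087, the highest without the line #1 air array). The number of the 4 genes called under hypoxia in OE-HRA1 was 2 with no minimum SLR, and with a test against an SLR of 1 it was 0 in OE-HRA1 and 0 in Col-0. With platform-named probe sets only, which leave out IAA2, it was 0 in OE-HRA1 and 1 in Col-0. At an adjusted p below 0.05 it was 3 in Col-0, with GH3.3 added. With an array or line left out it ran from 0 to 1 in OE-HRA1 and from 1 to 3 in Col-0. A replicate block by number, by OE-HRA1 line or within each genotype (the last chosen after seeing the data) changed no call of the 4 genes, with 1 called in OE-HRA1, 2 in Col-0 and 0 in the other comparisons.

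Counts over all probe sets moved more. With 1 array left out, calls between OE-HRA1 and Col-0 ran from 71 to 250 under hypoxia (212 with all arrays) and from 1 to 34 in air (25), and interaction calls from 6 to 34 (38). With a line left out they ran from 17 to 57, from 1 to 2 and were 1, and calls under hypoxia in OE-HRA1 from 132 to 155 (695). With no minimum SLR, calls under hypoxia were 2262 in OE-HRA1 and 1995 in Col-0 (647), and 478 between the genotypes. Tested against an SLR of 1 they were 141, 169 and 20. The block within each genotype gave 315 under hypoxia, 104 in air and 66 for the interaction. The block on the OE-HRA1 line gave 12 in air and 20 for the interaction, and among the genes named it ended only the calls of SAUR27 (interaction), AT1G29500 and OLEO1. The number of arrays limits all of these.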
